A study of Schmidtea mediterranea with 58 samples.

Results

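A set of 156 transcripts was followed whose level at planarian wounds declined until 48 hours post amputation (hpa) in control animals and declined less in *equinox* RNAi animals. *equinox* (dd_20318) is expressed in the planarian wound epidermis, the epidermal cover that forms over an amputation. The members were chosen from these same counts, as CPM (each count over its library's total, scaled to a common library size), with L the log2 of a group's median CPM plus 1. A control median of at least 5 CPM at 0 hpa was asked for, together with control L that was highest at 0 hpa, lowest at 48 hpa and lower by 0.6 or more at the end. Of 28742 transcripts, 279 met these limits and are called late fallers here. For 156 of the 279 the change in *equinox* RNAi between 0 and 48 hpa was under 0.5 times that in control, and these are the members. The other 123 late fallers serve as the set most like them. No size limit was reached, as up to 200 members were allowed.

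The libraries came from anterior-facing wounds of post-pharyngeal (tail) fragments of strain CIW4 *Schmidtea mediterranea*, with 5 wounds pooled in each replicate. *equinox* RNAi animals had been fed *equinox* dsRNA and control animals *unc-22* dsRNA, a *C. elegans* sequence used as an inert control, and both kinds received 8 feedings mixed with liver. The labels put amputation 7 days after the last feeding, whereas the paper's methods give 3 days for *equinox* RNAi. Each treatment has 29 libraries, with 5 replicates at each of 0, 3, 6, 16, 24 and 48 hpa except for 4 of *equinox* RNAi at 0 hpa and 4 of control at 48 hpa. The labels number the replicates but do not say whether they came from separate cohorts of animals, so p-values measure the spread between these libraries, which may be technical. RNAi by feeding acts through the whole animal and is not limited to the wound epidermis. In bulk wound tissue, fewer cells of a type and less RNA per cell cannot be told apart.

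Total counts lay between 1312330 and 38053378 per library, with a median of 15070578. dd_20318 had 38.3, 27.2, 2.95 and 5.32 CPM at 0 hpa and 9.896, 32.7, 30.4, 1.64 and 7.5 CPM at 3 hpa in libraries labelled *equinox* RNAi, against 4.56 to 7.75 CPM and 4.53 to 6.86 CPM in control at those times. The label is thus not borne out by this transcript at 0 and 3 hpa, where 2 of 4 and 4 of 5 of these libraries were above every control library, and every direction given below for *equinox* RNAi at 0 and 3 hpa, comparisons with 3 hpa included, rests on the label. From 6 hpa on, dd_20318 was at most 4.24 CPM in *equinox* RNAi at each time and its mean was below that of control. For replicate 1 of *equinox* RNAi at each time from 3 hpa on, 5 libraries in all, the title and the time field name different times, and the title was followed.

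Planarians rebuild lost parts from stem cells called neoblasts. Amputation induces a wave of transcripts in wound epidermis and muscle within hours, and a later phase of stem cell proliferation and pattern formation follows at wounds that lack tissue. The transcripts described here ran the other way in control animals, with their highest level in the freshly cut tissue. The members span a wide range of abundance, with control medians at 0 hpa between 5.97 and 5398 CPM and a median over members of 47.0 CPM. Of the 156, 49 exceeded 100 CPM and 17 were below 10 CPM. Only 11 of them carry an annotation in the table used here, which holds 1200 transcripts, so most are given by their transcript number.

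The control decline that the rule asked for had a median of -0.85 over members on the log2(median CPM + 1) scale, between -3.42 and -0.60. It was gradual, with medians of 18.4%, 27.1%, 56.4% and 76.5% of it reached by 3, 6, 16 and 24 hpa. The largest single step led to 3 hpa for 17 members, to 6 hpa for 18, to 16 hpa for 57, to 24 hpa for 31 and to 48 hpa for 33. In *equinox* RNAi the change between 0 and 48 hpa had a median of -0.26, between -1.21 and 0.31. It was below 0 for 141 members and above 0 for 15. For 62 members it was under 0.25 times the control change, and for 94 it was 0.25 times or more. How small a change counts as staying up was not set, so the members are called by the rule here. All of these values chose the members and are given as a description.

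The smaller change in *equinox* RNAi had 2 parts. At 48 hpa, the *equinox* RNAi median exceeded that of control for 133 of the 156 members, with a median difference of 0.24 on the log2(median CPM + 1) scale. At 0 hpa, before any decline, it was below that of control for 135 members, with a median difference of -0.38. The lower start was the larger of the 2 for 95 members and the higher end for 61, and 112 members had both. Counted by libraries, every *equinox* RNAi library at 48 hpa was above every control library for 39 members, against 4.73% of all tested transcripts. Every *equinox* RNAi library at 0 hpa was below every control library for 51 members, against 3.74% of all tested transcripts, and 5 members showed both separations. Every 48 hpa library was below every 0 hpa library for 33 members in *equinox* RNAi, against 3.61% of all tested transcripts. In control this held for 134 members, against 9.62%. The rule used these contrasts, and nothing is read from these counts. The other late fallers also had a lower start in *equinox* RNAi, with a median difference of -0.30 at 0 hpa, and their median difference at 48 hpa was 0.06.

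**Figure D1:**
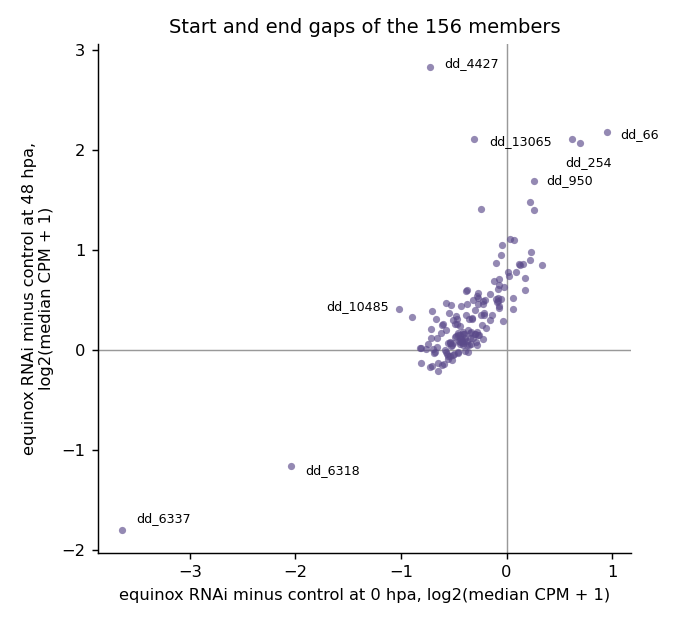
Each point is 1 of the 156 members, with the difference of *equinox* RNAi minus control in log2(median CPM + 1) at 0 hpa on the horizontal axis and at 48 hpa on the vertical axis. The upper left holds the 112 members that began lower and ended higher in *equinox* RNAi, while dd_6337 and dd_6318 lie apart at the lower left and dd_66 and dd_254 at the upper right.

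The rule used every control library and the *equinox* RNAi libraries at 0 and 48 hpa. Their values here, shares of all counts included, are a description and no further support. The mean of log2(CPM + 1) over the 156 members was taken in each library. In *equinox* RNAi it was 5.47 ± 0.13 at 0 hpa (SD, n = 4), and 5.44 ± 0.09, 5.37 ± 0.14, 5.19 ± 0.10, 5.19 ± 0.12 and 5.16 ± 0.14 at 3, 6, 16, 24 and 48 hpa (n = 5 each). In control it was 5.79 ± 0.08, 5.63 ± 0.03, 5.47 ± 0.23, 5.25 ± 0.10 and 5.11 ± 0.12 at 0, 3, 6, 16 and 24 hpa (n = 5 each) and 4.84 ± 0.10 at 48 hpa (n = 4). At 0 hpa the *equinox* RNAi libraries, at 5.32 to 5.60, were all below the control libraries, at 5.67 to 5.86. At 3 hpa they were also separate, at 5.29 to 5.53 in *equinox* RNAi and 5.60 to 5.67 in control, but overlapped by TMM library size, at 5.41 to 5.55 and 5.48 to 5.55. At 6, 16 and 24 hpa the ranges of the treatments overlapped. At 48 hpa *equinox* RNAi libraries spanned 4.95 to 5.28, which overlapped with the 4.74 to 4.98 of control through 1 library. By TMM library size the treatments were separate at 48 hpa, at 4.96 to 5.31 in *equinox* RNAi and 4.75 to 4.83 in control. Control replicate 5 at 6 hpa stood below the other 4 of its group, at 5.09 against 5.42 to 5.65. Members held 2.08% of all counts in *equinox* RNAi and 1.58% in control at 48 hpa, and 2.74% in *equinox* RNAi and 3.12% in control at 0 hpa.

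**Figure D2:**
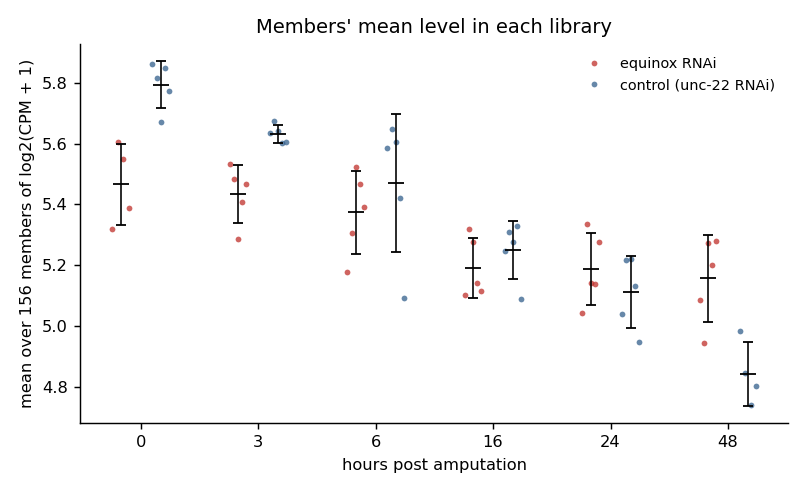
The mean of log2(CPM + 1) over the 156 members is plotted for each library against hours post amputation, with *equinox* RNAi in red and control in blue and bars for the mean and SD of each group. The *equinox* RNAi libraries lie below control at 0 and 3 hpa by column total (at 3 hpa not by TMM). They overlap with it from 6 to 24 hpa. At 48 hpa they lie mostly above it, and all above it by TMM. The values at 0 and 48 hpa chose the members.

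The *equinox* RNAi libraries at 3, 6, 16 and 24 hpa played no role in the choice of members, so whether the members stayed up between these times could be asked of data the rule did not use. The calls were nearly all downward. At 24 against 3 hpa in *equinox* RNAi, 36 of the 156 members were called lower (23.1%) by edgeR's quasi-likelihood test at an adjusted p below 0.05, against 3.55% of all 20129 transcripts tested. A single member was called higher (0.641%), against 2.98% of all tested. The fold change was below 1 for 139 members, and its median on the log2 scale was -0.25, against -0.02 over all tested transcripts. At 16 against 3 hpa, 52 members were called lower (33.3%), against 5.63% of all tested, and 2 were called higher, against 4.97%. The median log2 fold change was -0.25 at this time too, against -0.01 over all tested, and 129 members were below 0. Being called lower at both times held for 26 members and at either for 62. No share of all tested transcripts is given beside these 2 counts, and nothing is read from them. With the replicate number as a block in a fit of those groups alone, 24 members were called at 24 against 3 hpa, all of them lower. The share of all transcripts called in that fit is not given, and nothing is read from this count either.

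The other late fallers gave like counts at 24 hpa and larger ones at 16 hpa. Of the 123, 26 were called lower at 24 against 3 hpa (21.1%) and 63 at 16 against 3 hpa (51.2%), with medians of -0.25 and -0.43, and none was called higher. The difference between the lists was not tested, since the rule divided them by a value from the same treatment. After 24 hpa the lists parted by construction. From 24 to 48 hpa the median change of the members was -0.04 in *equinox* RNAi and -0.22 in control, whereas that of the other late fallers in *equinox* RNAi was -0.29.

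**Figure D3:**
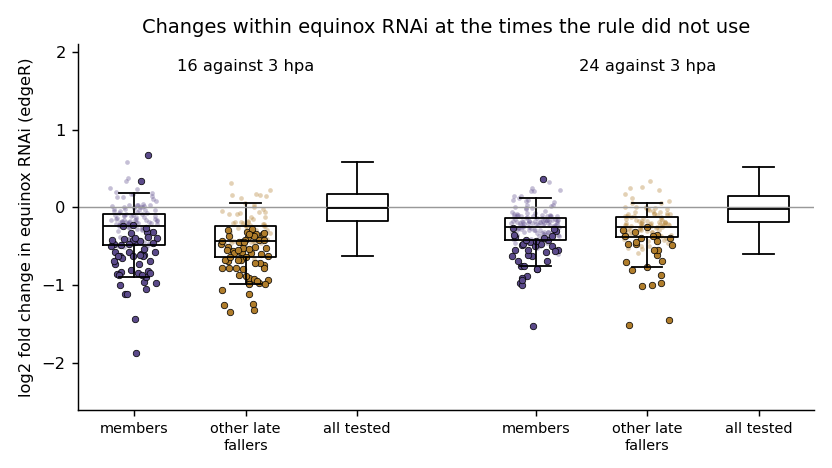
Log2 fold changes within *equinox* RNAi from edgeR are shown for the 156 members, the 123 other late fallers and all 20129 tested transcripts, with boxes for the quartiles and median, whiskers from the 5th to the 95th percentile, and outlined points for transcripts called at an adjusted p below 0.05. Members lie mostly below 0, with medians of -0.25 at both 16 and 24 against 3 hpa.

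The members were divided by the time of their control decline. Among all tested transcripts 5.63% were called lower at 16 against 3 hpa and 3.55% at 24 against 3 hpa in *equinox* RNAi. Of the 17 members whose largest control step ended at 3 hpa, 3 were called lower at each of these times, and of the 18 whose step ended at 6 hpa, 5 were at 16 against 3 hpa and 2 at 24 against 3 hpa. Of the 57 members whose largest control step ended at 16 hpa, 32 were called lower at 16 against 3 hpa (56.1%), with a median log2 fold change of -0.46, and 20 at 24 against 3 hpa. Of the 31 whose largest control step ended at 24 hpa, 2 were called lower at 16 against 3 hpa (6.45%, near the share of all tested) and 6 at 24 against 3 hpa, and their medians were -0.02 and -0.20. Of the 33 whose largest control step ended at 48 hpa, 10 were called lower at 16 against 3 hpa and 5 at 24 against 3 hpa. Among the 62 with a ratio of the 2 changes below 0.25, 13 were called lower at 16 against 3 hpa and 6 at 24 against 3 hpa, while among the 94 with a larger ratio 39 and 30 were. Of the 15 members whose *equinox* RNAi change was above 0, none was called lower at 16 against 3 hpa and 1 at 24 against 3 hpa. These subsets were formed with the same counts in view and are given without a test. By abundance, 2 of the 17 below 10 CPM in control at 0 hpa were called at 24 against 3 hpa, compared with 25 of the 90 between 10 and 100 CPM and 9 of the 49 above 100 CPM.

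Of the 156, 11 had a human best match by blastx. The roles given are those of the human proteins, and the names hold only as far as the table used here, since another supplementary table of the study names nearly every shared transcript differently. dd_10485 matched TRPM2, a calcium-permeable cation channel. It had 10.1, 15.3, 11.9, 18.5 and 16.9 CPM in the *equinox* RNAi libraries at 24 hpa, against 28.04, 24.6, 16.8, 29.7 and 26.5 CPM at 3 hpa, so that only 2 libraries at 24 hpa passed the lowest at 3 hpa, and it was called lower (log2 fold change -0.80, SE 0.20, adjusted p = 0.00606). Its start was low, with 17.9, 23.7, 24.8 and 16.1 CPM in *equinox* RNAi and 44.2, 39.4, 26.8, 46.4 and 34.1 CPM in control at 0 hpa, where the groups did not overlap. At 48 hpa it had 5.64, 5.26, 11.3, 9.85 and 11.8 CPM in *equinox* RNAi and 13.9, 6.27, 8.08 and 7.22 CPM in control, within the spread of both groups. The means at 48 hpa were 8.76 ± 3.11 CPM in *equinox* RNAi and 8.87 ± 3.45 CPM in control (SD, n = 5 and 4), and the rule used the values at 0 and 48 hpa.

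dd_10130 matched GRM3, a metabotropic glutamate receptor of neurons. It had 14.4, 21.8, 16.7, 16.2 and 20.7 CPM at 24 hpa in *equinox* RNAi, against 35.8, 35.8, 28.7, 30.01 and 33.2 CPM at 3 hpa, with no overlap (log2 fold change -0.88, SE 0.14, adjusted p = 8.03e-06). Similar levels were reached by 16 hpa, at 14.4, 22.2, 21.7, 17.7 and 17.7 CPM (log2 fold change -0.84, SE 0.14, adjusted p = 1.07e-05). In control the libraries had 14.4, 22.97, 19.3, 18.4 and 14.5 CPM at 24 hpa and 35.3, 43.7, 32.0, 38.4 and 39.9 CPM at 3 hpa. The treatments overlapped at 24 hpa, and at 0 hpa *equinox* RNAi had 23.96, 37.0, 35.9 and 26.03 CPM against 47.9, 52.1, 42.2, 49.9 and 47.3 CPM in control.

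dd_10051 matched STRA6, the membrane receptor through which cells take up retinol from its carrier protein. It averaged 11.8 ± 3.06 CPM at 24 hpa and 17.97 ± 1.74 CPM at 3 hpa in *equinox* RNAi (SD, n = 5 each), and was called lower (log2 fold change -0.63, SE 0.15, adjusted p = 0.00417). dd_10591 matched LOXL2, a lysyl oxidase that crosslinks collagen in the extracellular matrix. It had 7.62, 8.69, 7.24, 7.41 and 6.33 CPM at 16 hpa in *equinox* RNAi, each below the 13.1, 11.04, 11.7, 11.6 and 12.7 CPM of the 3 hpa libraries (log2 fold change -0.73, SE 0.14, adjusted p = 0.000162). Its call at 24 against 3 hpa was weak (log2 fold change -0.45, SE 0.14, adjusted p = 0.0434) and was lost in 8 of the 10 fits that left out 1 library, with adjusted p up to 0.136. dd_1002 matched SORD, sorbitol dehydrogenase, and was called lower at 16 against 3 hpa (log2 fold change -0.47, SE 0.10, adjusted p = 0.00052), while its call at 24 against 3 hpa (adjusted p = 0.0465) was lost in 7 of 10 such fits, with adjusted p up to 0.158.

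Further annotated members were called at 16 against 3 hpa alone. dd_10288 matched PLEKHG6 and averaged 13.1 ± 2.37 CPM at 16 hpa and 22.1 ± 1.903 CPM at 3 hpa in *equinox* RNAi (log2 fold change -0.80, SE 0.13, adjusted p = 5.79e-06). It had 18.5 ± 3.08 CPM again at 24 hpa, and the control means were 17.5 ± 1.72 CPM at 16 hpa and 21.96 ± 1.31 CPM at 24 hpa, so the dip and the return were seen in both treatments. dd_10364, which matched the short-chain dehydrogenase DHRS11, was called lower (log2 fold change -0.86, SE 0.25, adjusted p = 0.0168), a call lost without *equinox* RNAi replicate 5 at 3 hpa (adjusted p = 0.0524). dd_10758, which matched WDR41, a partner of C9ORF72 at lysosomes, was called lower too (log2 fold change -0.57, SE 0.17, adjusted p = 0.0219), and this call was lost without *equinox* RNAi replicates 4 or 5 at 3 hpa or replicate 1 at 16 hpa, with adjusted p up to 0.0896.

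The other 3 annotated members passed neither test. dd_1009_1_1 matched SLC8B1, the mitochondrial sodium/calcium exchanger, with log2 fold changes of -0.34 (SE 0.16) at 24 against 3 hpa and -0.46 (SE 0.16) at 16 against 3 hpa. dd_10313 matched CNNM2, a membrane protein of magnesium handling, with -0.11 (SE 0.16) and -0.41 (SE 0.16). dd_10280 matched the ankyrin repeat protein ANKRD63, with -0.09 (SE 0.10) and -0.05 (SE 0.10), and of the annotated members its start was the nearest to control, at -0.08 on the log2(median CPM + 1) scale. At 48 hpa dd_10280 averaged 17.1 ± 2.07 CPM in *equinox* RNAi and 12.6 ± 2.76 CPM in control (SD, n = 5 and 4).

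The 5 members with the largest control decline, dd_4427, dd_254, dd_827, dd_950 and dd_13065, were with dd_66 the 6 members with the largest excess in *equinox* RNAi at 48 hpa. None of them is annotated in the table used here. A large control decline together with the limit on the ratio favours such an excess by construction. The values of single members at 0 and 48 hpa, here and below, are therefore a description. dd_4427 had 15.2, 11.3, 16.3, 17.2 and 16.7 CPM in *equinox* RNAi at 48 hpa, against 2.29, 1.68, 0.868 and 1.204 CPM in control, with no overlap. Its levels at 0 hpa overlapped, with 13.8, 21.2, 15.6 and 12.1 CPM in *equinox* RNAi and 36.4, 25.1, 15.1, 27.6 and 14.4 CPM in control. At 24 hpa, a time whose *equinox* RNAi libraries the rule left aside, it had 9.13, 15.4, 9.07, 8.53 and 7.84 CPM in *equinox* RNAi and 5.29, 3.69, 3.55, 3.82 and 4.52 CPM in control, again without overlap (log2 fold change 1.22, SE 0.26, adjusted p = 0.00401). The control libraries at 24 hpa were bounded by the rule. dd_4427 was also named for its control decline and for the size of this call, which is therefore no independent support. dd_254, dd_6337, dd_6318 and dd_1114, below, were likewise named for their calls between treatments at 24 hpa. Between 3 and 24 hpa no change was called for dd_4427 in *equinox* RNAi (log2 fold change -0.36, SE 0.25, adjusted p = 0.499). The mean over libraries of dd_4427 stayed between 9.99 CPM, at 24 hpa, and 15.7 CPM, at 0 hpa, in *equinox* RNAi. At 3 hpa dd_4427 was called lower in *equinox* RNAi than in the control libraries (log2 fold change -0.80, SE 0.25, adjusted p = 0.0333), a call lost in 6 of 10 fits without 1 library, with adjusted p up to 0.119.

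dd_13065 was likewise separated at 48 hpa, with 33.2, 14.9, 26.4, 32.5 and 24.7 CPM in *equinox* RNAi and 5.19, 6.82, 3.54 and 5.53 CPM in control. At 16 hpa it had 33.5, 31.4, 33.2, 25.2 and 26.96 CPM in *equinox* RNAi and 29.1, 32.1, 33.4, 33.9 and 30.8 CPM in control, with overlap. It was called higher at 16 against 3 hpa in *equinox* RNAi (log2 fold change 0.67, SE 0.16, adjusted p = 0.00286), and at 24 against 3 hpa its log2 fold change was 0.07 (SE 0.16). Against control at 3 hpa it was called lower (log2 fold change -0.49, SE 0.17, adjusted p = 0.0472). That call was lost in 7 of 10 fits without 1 library. Its *equinox* RNAi means were 27.7, 18.4 and 30.0 CPM at 0, 3 and 16 hpa. Its control means were 28.4, 19.5 and 31.9 CPM at 3, 6 and 16 hpa, so both treatments dipped before 16 hpa. Against control at 24 hpa its log2 fold change of 0.45 (SE 0.16) was not called (adjusted p = 0.247).

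dd_950 declined in *equinox* RNAi and then returned in part, with means of 404 CPM at 0 hpa, 105 CPM at 24 hpa and 190 CPM at 48 hpa. Its *equinox* RNAi libraries had 136, 167, 58.9, 74.4 and 91.1 CPM at 24 hpa, against 244, 365, 328, 292 and 269 CPM at 3 hpa, the largest called decline among members at that time (log2 fold change -1.53, SE 0.20, adjusted p = 1.11e-07). The decline was larger still at 16 against 3 hpa (log2 fold change -1.87, SE 0.20, adjusted p = 4.71e-10). At 48 hpa the libraries had 156, 168, 146, 211 and 269.9 CPM in *equinox* RNAi and 44.0, 72.4, 49.5 and 52.8 CPM in control. Through 24 hpa the treatments overlapped, with 84.3 ± 15.9 CPM in *equinox* RNAi and 65.3 ± 7.83 CPM in control at 16 hpa (SD, n = 5 each), and no difference between treatments was called at 3, 6, 16 or 24 hpa.

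The remaining 2 of the 5, dd_254 and dd_827, were high in *equinox* RNAi at every time, as was dd_66. dd_254 had 1007, 1171, 1060.1, 1108 and 1086 CPM in *equinox* RNAi at 24 hpa, against 439, 509, 531, 368 and 392 CPM in control, with no overlap (log2 fold change 1.27, SE 0.16, adjusted p = 1.3e-07). At 16 hpa it had 559, 585, 628, 580.1 and 580.4 CPM in *equinox* RNAi and 198, 200.02, 145, 221 and 169 CPM in control (log2 fold change 1.67, SE 0.16, adjusted p = 6.82e-11). A dip at 16 hpa and a return at 24 hpa were thus present in both treatments. dd_827 followed the same course, with 229 ± 24.97 CPM at 16 hpa and 361 ± 51.9 CPM at 24 hpa in *equinox* RNAi, and 84.5 ± 17.4 and 166 ± 36 CPM in control. So did dd_66, with 1053 ± 147 CPM at 16 hpa and 2013 ± 244 CPM at 24 hpa in *equinox* RNAi, and 338 ± 73.8 and 875 ± 108 CPM in control (SD, n = 5 each). At 16 against 3 hpa in *equinox* RNAi all 3 were called lower, with log2 fold changes of -0.999 (SE 0.16) for dd_254, -0.87 (SE 0.17) for dd_827 and -0.97 (SE 0.19) for dd_66. Whether the 3 share sequence, and so reads, was not examined.

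**Figure D4:**
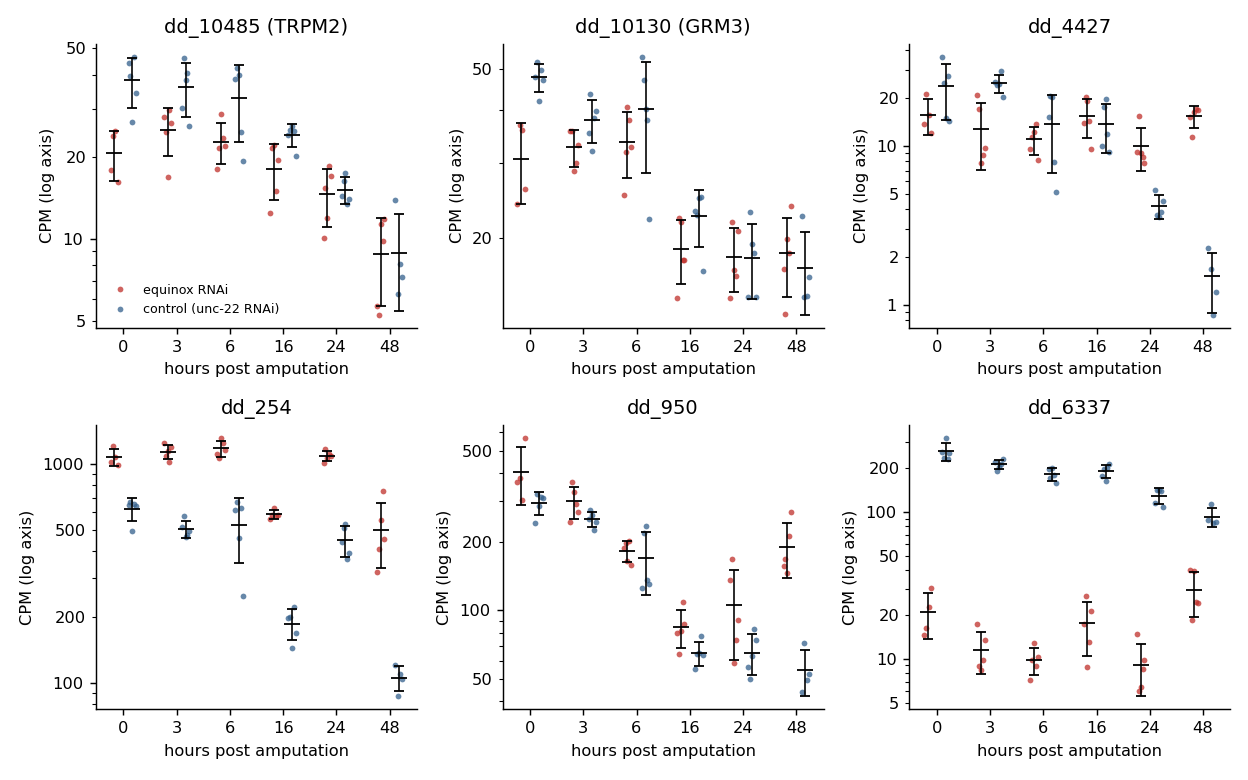
CPM in every library is shown on a log axis against hours post amputation for 6 members, with *equinox* RNAi in red, control in blue and bars for the mean and SD. dd_10485 and dd_10130 start lower in *equinox* RNAi and meet control later, dd_4427 separates from control at 24 and 48 hpa and dd_950 at 48 hpa, dd_254 is higher in *equinox* RNAi and dd_6337 lower at every time.

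Between treatments at the times after 0 and before 48 hpa, members were called in both directions. Here the rule had used the control libraries as a bound, since a control median could not pass that at 0 hpa nor fall below that at 48 hpa, and no *equinox* RNAi library. At 24 hpa, 7 members were called higher in *equinox* RNAi and 3 lower, against 0.576% and 0.671% of all tested. At 16 hpa, 5 were called higher and 4 lower, against 0.308% and 0.298%. At 6 hpa, 8 were called higher and 12 lower, against 3.7% and 3.96%, and at 3 hpa 13 were called higher and 13 lower, against 5.78% and 5.55%. The median log2 fold change over members at 3, 6, 16 and 24 hpa was -0.03, -0.06, -0.06 and 0.07, against 0.019, -0.001, -0.004 and 0.009 over all tested transcripts. Called at none of the 4 times were 119 of the 156. No share of all tested transcripts is given beside that count, and nothing is read from it. Among the 123 other late fallers, 18, 15, 7 and 12 were called higher at 3, 6, 16 and 24 hpa, and 7, 11, 8 and 4 were called lower.

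These counts moved with some settings. At 16 hpa same-numbered libraries of the treatments deviated together, and with the replicate number as a block in a fit of those groups alone 18 members were called, 11 higher and 7 lower, against 1.12% and 1.23% of the transcripts tested in that fit, and 9 of the 18 were called without the block too. At 3 hpa the split between higher and lower changed with the scaling, as with column totals in place of TMM size factors 6 were called higher and 21 lower. With column totals it was 5 higher and 14 lower at 6 hpa, and 4 and 5 at 16 hpa. The scaling moved all transcripts, as the median over the 11714 transcripts with at least 5 CPM in control at 0 hpa was -0.10 at 3 hpa by column total and 0.06 by TMM, with *equinox* RNAi minus control on the log2(median CPM + 1) scale. At 3 hpa the total fell to between 11 and 17 without any 1 of 6 libraries, control replicates 2, 3 and 4 and *equinox* RNAi replicates 3, 4 and 5. At 6 hpa it was 12 without control replicate 4 and 38 without control replicate 5, of which 28 were lower. A fit of the compared groups alone called 5 members at 6 hpa. With the 5 libraries placed by their time field, 45 were called at 3 hpa. Apart from the block at 16 hpa, these counts stand without a share of all tested transcripts in the same fit. Nothing about the members is read from them.

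**Figure D5:**
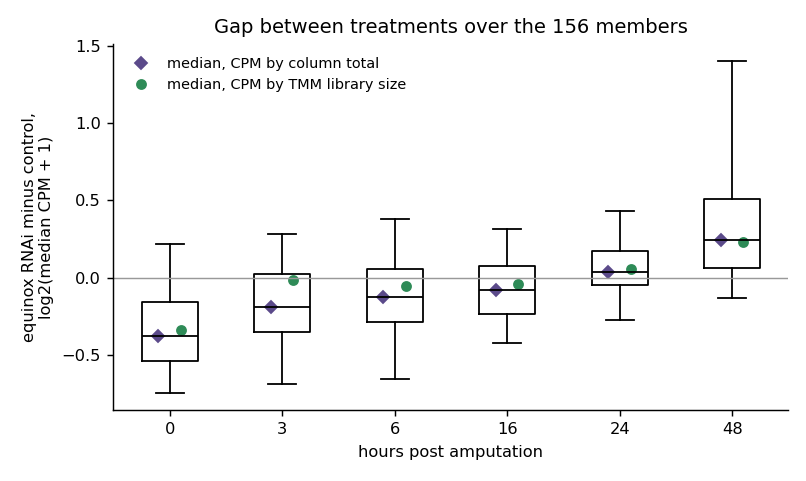
The difference of *equinox* RNAi minus control in log2(median CPM + 1) is shown over the 156 members at each time, with boxes for the quartiles and median by column total, whiskers from the 5th to the 95th percentile, and markers for the median under each scaling. The values at 0 and 48 hpa, with medians of -0.38 and 0.24 by column total, chose the members, and at 3 hpa the median is -0.19 by column total and -0.01 by TMM.

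The gap between treatments was followed over all times. On the log2(median CPM + 1) scale and by column total, the median over members of *equinox* RNAi minus control was -0.38, -0.19, -0.12, -0.08, 0.04 and 0.24 at the 6 times in turn, 0 hpa first. With TMM library sizes it was -0.34, -0.01, -0.05, -0.04, 0.06 and 0.23 at the same times. The values at 0 and 48 hpa chose the members. At 3 hpa the size of the median rested on the scaling, whereas between 6 and 24 hpa both scalings gave medians within 0.13 of 0.

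Few members differed between treatments throughout. Of all tested transcripts, 0.194% were called higher in *equinox* RNAi at each of 3, 6, 16 and 24 hpa. Among the members 4 were, dd_254, dd_827, dd_66 and dd_6585. The last falls outside the rule for named transcripts and was singled out after its values were seen. dd_6585 had 119, 113, 135, 106 and 115 CPM in *equinox* RNAi at 24 hpa and 80.97, 85.4, 77.4, 90.9 and 72.03 CPM in control, without overlap (log2 fold change 0.52, SE 0.11, adjusted p = 0.00259). Its *equinox* RNAi libraries at 48 hpa had 159, 183, 185, 132 and 146 CPM, close to 146, 139.9, 162 and 179 CPM at 0 hpa, while control had 54.3, 58.6, 46.1 and 60.04 CPM at 48 hpa and 119.6, 132, 135, 138 and 132 CPM at 0 hpa. Its ratio of the 2 changes was -0.04, and at 0, 24 and 48 hpa its groups did not overlap.

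Of all tested transcripts, 0.134% were called lower in *equinox* RNAi at each of these 4 times. Among the members 3 were, dd_6337, dd_6318 and dd_1114. dd_6337 had 14.8, 6.06, 6.45, 8.46 and 9.804 CPM in *equinox* RNAi at 24 hpa, against 114, 141, 141, 138 and 108 CPM in control (log2 fold change -3.80, SE 0.24, adjusted p = 1.24e-16). At 0 hpa it had 14.6, 16.1, 22.7 and 30.5 CPM in *equinox* RNAi and 257, 234, 318, 229 and 254 CPM in control. Its groups were far apart at the start, and it met the limit on the ratio with a change of 0.31 in *equinox* RNAi and -1.54 in control. At 48 hpa it was still lower, at 40.3, 18.3, 39.4, 24.2 and 23.9 CPM in *equinox* RNAi and 87.8, 113, 83.4 and 85.3 CPM in control. Within *equinox* RNAi its log2 fold change at 24 against 3 hpa was -0.33 (SE 0.24) and was not called.

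dd_6318 was a rare transcript with the same direction, at 1.304, 0.771, 0.349, 0.792 and 0.722 CPM in *equinox* RNAi and 3.01, 2.08, 3.95, 4.22 and 3.44 CPM in control at 24 hpa (log2 fold change -2.01, SE 0.31, adjusted p = 1.35e-05). The *equinox* RNAi values rest on few reads, so its change within *equinox* RNAi was not well measured. dd_1114 was abundant and lower by less, with 279, 335, 293, 282 and 274 CPM in *equinox* RNAi and 379, 429, 341, 468 and 386 CPM in control at 16 hpa (log2 fold change -0.43, SE 0.09, adjusted p = 0.00373). The order was the other way round at 48 hpa, with 262, 242, 335, 280.4 and 283 CPM in *equinox* RNAi and 189.7, 229, 220.1 and 191 CPM in control, without overlap. Its call at 24 hpa (adjusted p = 0.0449) was lost in 9 of 10 fits without 1 library, with adjusted p up to 0.186, and its call at 3 hpa in 2 of 10. The other member called lower at 16 hpa was dd_2262 (log2 fold change -0.48, SE 0.12, adjusted p = 0.024), also singled out after its values were seen.

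The 5 most abundant members in control at 0 hpa were dd_20, dd_267, dd_568, dd_400 and dd_790. dd_568 had 2115, 2218, 2225, 2019 and 2492 CPM in *equinox* RNAi at 48 hpa and 1457, 1453, 1405 and 1473 CPM in control, with no overlap, and 2416, 2885, 2834 and 2424 CPM in *equinox* RNAi and 2749.6, 2892, 2394, 3182 and 2789.9 CPM in control at 0 hpa, where the groups overlapped. At 24 against 3 hpa in *equinox* RNAi its log2 fold change was -0.17 (SE 0.08) and was not called. Between treatments it was called higher in *equinox* RNAi at 16 hpa (log2 fold change 0.33, SE 0.08, adjusted p = 0.0296), a call lost in 7 of 10 fits without 1 library, with adjusted p up to 0.137. dd_400 was called lower at 24 against 3 hpa in *equinox* RNAi, averaging 1114 ± 106 CPM at 24 hpa and 1481 ± 178 CPM at 3 hpa (log2 fold change -0.44, SE 0.11, adjusted p = 0.00577). dd_790 was called lower at 16 against 3 hpa (log2 fold change -0.54, SE 0.15, adjusted p = 0.00926), a call lost without *equinox* RNAi replicate 3 at 3 hpa (adjusted p = 0.0544), while dd_20 and dd_267 passed neither test.

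The remaining calls at 24 against 3 hpa that the naming rule takes up were small in level. dd_18934 averaged 2.08 ± 0.338 CPM at 24 hpa and 4.05 ± 0.584 CPM at 3 hpa in *equinox* RNAi (log2 fold change -0.99, SE 0.25, adjusted p = 0.00593). dd_12511_1_1 averaged 2.27 ± 0.948 and 4.51 ± 0.921 CPM at those times (log2 fold change -0.97, SE 0.24, adjusted p = 0.00515). The single member called higher was dd_11840, with 13.2, 14.3, 12.7, 13.5 and 13.0 CPM at 24 hpa and 12.7, 11.04, 8.93, 9.004 and 10.1 CPM at 3 hpa (log2 fold change 0.36, SE 0.11, adjusted p = 0.0377). That call was lost in 8 of 10 fits without 1 library, with adjusted p up to 0.105. In control dd_11840 dipped at 3 hpa as well, at 11.3, 9.87, 10.7, 9.54 and 11.1 CPM, and had 12.96, 11.1, 12.6, 14.4 and 11.6 CPM at 24 hpa.

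The limits of the rule cut through neighbours of like value. Just inside the limit on the control change were dd_13596 and dd_3719 at -0.60, and just outside were dd_1595 and dd_750, also at -0.60. dd_3719 had 58.7, 54.1, 57.9, 64.3 and 55.9 CPM in *equinox* RNAi and 26.8, 36.6, 31.99 and 29.1 CPM in control at 48 hpa, without overlap. Just inside the limit on the ratio were dd_14195 at 0.497 and dd_1706 at 0.498, and just outside were dd_9118 at 0.501 and dd_4695 at 0.501. A ratio below 0.25 was met by 62 members. With means in place of medians the number of members was 144, of which 85 were among the 156, and with CPM by TMM library size 200, of which 117 were, so membership depended on these choices.

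Lists of transcripts by human best match cover only annotated transcripts. Of 17 neuronal transcripts 1 was a member, dd_10130, and of 13 of muscle and matrix 1, dd_10591. No member was among 15 of cilia, 9 of cell division or 14 of patterning signals and factors. Of the 1200 transcripts that the annotation covers, 11 were members, and beside that share nothing is read from these list counts. In *equinox* RNAi at 24 against 3 hpa, where 2.98% of all tested transcripts were called higher and 3.55% lower, 2 of the neuronal list and 1 of the cilia list were called lower and none higher. Of the muscle and matrix list 3 were called higher and 3 lower, of the patterning list 4 higher and 1 lower, and of the cell division list none. Against control at 24 hpa, 1 of the patterning list was called higher and 1 lower and none of the other 4 lists was called, where 0.576% of all tested were called higher and 0.671% lower. The part of any cell type in the members' course was not tested.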

How the data were processed

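The authors trimmed reads of 50 bp with cutadapt 1.8 (per the labels), mapped them to the dd_Smed_v6 transcriptome with bowtie 1.1.2 and counted reads per contig with bedtools 2.26.0. The deposited values are raw counts summed per transcript, for 28742 transcripts in 58 libraries, and every column was mapped to a sample by its title. The labels name Bowtie 1.2 and SAMtools 1.6. Whether counting used strand is not given in the sources used here, so overlapping or near-identical transcripts can share reads.

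From the counts, CPM were computed by column total. The main model held all 12 groups at once and used edgeR 4.0.16 under R 4.3.3 (robust quasi-likelihood F-test, TMM size factors, filterByExpr with a minimum count of 10), leaving 20129 transcripts, all members among them. P-values were adjusted by Benjamini-Hochberg over all transcripts tested, with a threshold of 0.05. Fold changes are log2, and their SE is the fold change over the root of F. The members and lists were chosen with earlier results of these data known. Transcripts named are the annotated members, the 5 with the largest control change, the 5 most abundant, the 3 with the largest called change in each direction at 24 against 3 hpa and between treatments at 24 hpa, and those beside the limits of the rule. Names come from blastx columns for 1200 transcripts in a supplementary table. Those columns carry an older transcript number, which agreed for 1106. Only part of that table was held, and the names in another supplementary table differ for nearly every shared transcript and were not used. No transcript sequences or genome were used here. Alternatives were RLE size factors, no filter, DESeq2 1.42.0, fits of the compared groups alone, the replicate number as a block, leaving out or moving the 5 libraries whose times disagree, and each library left out in turn. A block within the compared groups and column totals without size factors were added after seeing the data. Pairing was checked by correlating the deviations of same-numbered libraries from their group means over 17960 transcripts. Only at 16 hpa between treatments did every pair exceed 0.1, with r between 0.12 and 0.69. No replicates of a group repeated each other, as the lowest chi-square per degree of freedom between them was 2.37, and libraries of different groups were not compared in this way. On simulated counts for 24 against 3 hpa (19530 transcripts), 93 of 100 transcripts changed by 1 on the log2 scale and 55 of 100 changed by 0.5 were recovered, with 8 false calls. The changed transcripts were drawn from those with higher mean counts, libraries were independent and no other group differed. The recovery therefore does not cover rare members. Nor does it cover changes as small as the members' median of -0.25 at 24 against 3 hpa.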

Additional observations from a re-analysis of the deposited data

Results flagged for a closer look

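Values of 12 members and their mean were examined for a library far from the rest of its group, by the gap to its nearest neighbour over the group's range. Of 156 such groups 6 stood out, and chance alone gives about 1 in 20. dd_10130 was at 16.6 CPM in control replicate 5 at 16 hpa, against 22.6 to 24.99 CPM in the others. dd_568 was at 3124 CPM in *equinox* RNAi replicate 2 at 3 hpa, against 2483 to 2651 CPM. dd_254 was at 491 CPM in control replicate 3 at 0 hpa, against 640 to 671 CPM. dd_4427 was at 15.4 CPM in *equinox* RNAi replicate 2 at 24 hpa, against 7.84 to 9.13 CPM. dd_13065 was at 32.8 CPM in *equinox* RNAi replicate 3 at 0 hpa, against 25.7 to 26.3 CPM. dd_6337 was at 113 CPM in control replicate 2 at 48 hpa, against 83.4 to 87.8 CPM.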

How the results depend on the processing

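The counts of members called at 24 and 16 against 3 hpa in *equinox* RNAi (37 and 54, both directions summed) stayed within 1.5 times under RLE size factors, no filter, DESeq2, the compared groups alone, the block over all groups, and the 5 libraries left out or moved. The exception was the replicate block within the compared groups, an alternative added later, which gave 24 at 24 against 3 hpa, 18 between treatments at 16 hpa, 3 at 6 hpa and 43 at 3 hpa. Only at 16 hpa between treatments did every same-numbered pair deviate together, with r above 0.1. At 24 against 3 hpa 3 of 5 pairs did, with r between -0.48 and 0.61. Whether the numbers pair the samples in these other comparisons was not settled, so the other block counts cannot be read either way. Between treatments the compared groups alone gave 5 at 6 hpa, and the 5 libraries placed by their time field gave 45 at 3 hpa, against 20 and 26. Without each library in turn the count was 11 to 33 at 3 hpa and 12 to 38 at 6 hpa. It was 25 to 37 at 24 against 3 hpa and 42 to 58 at 16 against 3 hpa. The cause was not tested. These counts stand without a share of all tested transcripts, and nothing about the members is read from them. The number of members was 112 to 200 without each library in turn, and 62 with a ratio below 0.25. With TMM scaling the rule gave 200, the largest number allowed, of which 117 were shared, and with the 5 libraries moved 155, of which 128 were shared.

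Of 67 calls of named members, 17 were lost without some library and none changed sign under any alternative. Values that were not called changed sign in 4 cases at 24 against 3 hpa. With the 5 libraries placed by their time field the log2 fold change was 0.0254 for dd_10280, 0.0063 for dd_4427 and 0.51 for dd_6337, and without *equinox* RNAi replicate 2 at 24 hpa it was -0.022 for dd_13065, whose range without each library in turn was -0.022 to 0.167. The shallowest library, with 1312330 counts, limits what can be seen of rare members in control at 3 hpa.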
